A study of Homo sapiens with 6 samples.

Results

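The genes described here encode the hypoxia-inducible factor (HIF) subunits and proteins that set their stability or activity. The subunit genes are HIF1A, EPAS1 and ARNT, and VHL encodes the receptor that marks the alpha subunits for destruction. EGLN1, EGLN2 and EGLN3 encode prolyl hydroxylases, and HIF1AN encodes an asparaginyl hydroxylase. These 8 genes were chosen by gene symbol, and each matched 1 of the 60409 rows of the count tables. All 8 passed the filter on low counts, among 18583 genes tested. The RNA came from ACHN, an established human renal cell adenocarcinoma line, 48 h after siRNA transfection. The NC group received a negative control siRNA, and the siMEX3A_1 and siMEX3A_2 groups each received a different siRNA directed at MEX3A, which encodes an RNA-binding protein. Every group had 2 libraries, and no untransfected group is listed. Nothing in the labels tells whether 2 libraries of 1 group stem from different cultures, so the p-values rest on a spread between libraries that may be technical.

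A HIF is a dimer of an oxygen-regulated alpha subunit (the product of HIF1A, or of EPAS1, also called HIF-2 alpha) with the constitutive partner ARNT. With oxygen present, the EGLN enzymes hydroxylate prolines of the alpha subunit, the VHL ubiquitin ligase binds the hydroxylated protein and the proteasome removes it, while HIF1AN hydroxylates an asparagine and blocks coactivator binding. Most of this control acts on protein, which was not measured here. VHL is the gene most often lost in clear cell renal carcinoma, where EPAS1 is regarded as the main oncogenic alpha subunit, and ACHN is commonly used as a renal line with a functional VHL gene.

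The sequences upstream of EPAS1, HIF1A and EGLN1 are shown because EPAS1 and EGLN1 were the 2 genes of the set that moved in opposite directions with the 2 siRNAs, and HIF1A is the other main alpha subunit. Each is the 250 bases before the first start site listed by RefSeq (GRCh38.p14, while the count tables rest on GRCh37 or hg19 per the submitters' processing notes), written on the strand of the gene. Capitals mark the core of the hypoxia response element, searched as ACGTG or GCGTG on both strands.
EPAS1 (chr2:46297157-46297406, plus strand): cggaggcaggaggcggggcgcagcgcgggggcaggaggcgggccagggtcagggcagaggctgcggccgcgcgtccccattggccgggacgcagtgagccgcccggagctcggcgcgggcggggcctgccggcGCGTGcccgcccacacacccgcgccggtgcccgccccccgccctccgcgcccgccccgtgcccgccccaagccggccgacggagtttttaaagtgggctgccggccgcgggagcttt
HIF1A (chr14:61695263-61695512, plus strand): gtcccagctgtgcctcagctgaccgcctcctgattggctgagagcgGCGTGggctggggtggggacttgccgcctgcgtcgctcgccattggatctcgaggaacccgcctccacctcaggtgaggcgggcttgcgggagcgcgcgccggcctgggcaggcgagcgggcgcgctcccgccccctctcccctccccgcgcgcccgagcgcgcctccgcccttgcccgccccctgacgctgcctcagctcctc
EGLN1 (chr1:231422288-231422537, minus strand): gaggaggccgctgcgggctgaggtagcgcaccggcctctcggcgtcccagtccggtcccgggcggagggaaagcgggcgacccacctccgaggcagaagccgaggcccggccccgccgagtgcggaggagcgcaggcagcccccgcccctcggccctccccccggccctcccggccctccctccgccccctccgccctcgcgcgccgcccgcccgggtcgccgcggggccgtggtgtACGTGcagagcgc
The core began 117 bases upstream of the start in EPAS1, 204 bases upstream in HIF1A and 13 bases upstream in EGLN1, where it was the ACGTG form. RefSeq entries were found for 7 of the 8 genes, all but VHL. The first EGLN2 window held the core as CACGTG, which reads as a match on both strands, and the windows of ARNT, EGLN3 and HIF1AN held none. Of 35116 human windows of this length, 43.2% held the core and 18.5% held the ACGTG form, so a match is a description of letters and not a binding site.

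Library totals lay between 18825750 and 19158723 counts. MEX3A, the targeted gene, was counted 94 and 109 times in the NC pair, 56 and 64 times in the siMEX3A_1 pair and 73 and 76 times in the siMEX3A_2 pair. Its log2 fold change was -0.71 (SE 0.17, edgeR adjusted p = 0.00655) with siMEX3A_1 and -0.42 (SE 0.17, adjusted p = 0.0644) with siMEX3A_2, and in the authors' deposited table neither value passed (adjusted p = 0.137 and 0.392). All 9 renal epithelial markers were detected, with PAX8 at 10403 to 16523 counts, and their summed normalized count was 44300 to 45580 in NC, 63240 to 67580 with siMEX3A_1 and 37010 to 38780 with siMEX3A_2. Members moved apart within this sum: with siMEX3A_1 the keratin genes KRT8 and KRT19 rose by 1.23 and 1.37 on the log2 scale, while PAX8 (-0.36), PAX2 (-0.58) and CDH16 (-2.55) fell. The 3 leukocyte markers summed to 295.9 to 319.9, 581.5 to 612.8 and 570.2 to 609.8 in the same order, nearly all of it CD68, with CD3E at 0 and PTPRC at most 2 counts. The 4 fibroblast and smooth muscle markers summed to 1949 to 2080, 2034 to 2205 and 2604 to 2797. Within them ACTA2 rose by 1.06 and 1.24 with the 2 siRNAs, and COL1A1 fell by 0.81 with siMEX3A_1 and did not pass with siMEX3A_2 (-0.11, adjusted p = 0.284). The endothelial markers CDH5 and KDR had at most 1 count. The part of these marker shifts in the results below was not tested. In bulk RNA, fewer cells expressing a gene and less RNA per cell cannot be told apart.

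Set per length in NC, the 2 alpha subunits stood far above the rest of the set. Levels per length here are RPKM-like values, from TMM-scaled library sizes and merged GENCODE exons. HIF1A had 132 and 142, and EPAS1 had 103 and 114. EGLN1, the principal oxygen sensor of most cells, followed with 19.3 and 20.6. The dimer partner ARNT (9.27 and 9.87) and VHL (8.97 and 9.20) lay close together below it, and HIF1AN had 6.87 and 6.92. EGLN2 had 3.69 and 4.49. EGLN3, the prolyl hydroxylase best known as a hypoxia-induced gene, was lowest at 0.258 and 0.32. The order of HIF1A and EPAS1 was the same with the longest coding transcript as the length (179 and 153), but EGLN2 then reached 9.53 and passed HIF1AN at 7.39, so the order of these 2 depends on the gene model. In the siMEX3A_1 libraries EPAS1 (182 and 197) stood above HIF1A (90.2 and 107), and in the siMEX3A_2 libraries EPAS1 (21.9 and 22.1) was close to the NC level of EGLN1. With the longest coding transcript, EPAS1 with siMEX3A_2 averaged 31.1 and EGLN1 in NC 20.5, so this closeness also depends on the gene model. ARNT and VHL in NC then averaged 12.8 and 10.2.

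**Figure D1:**
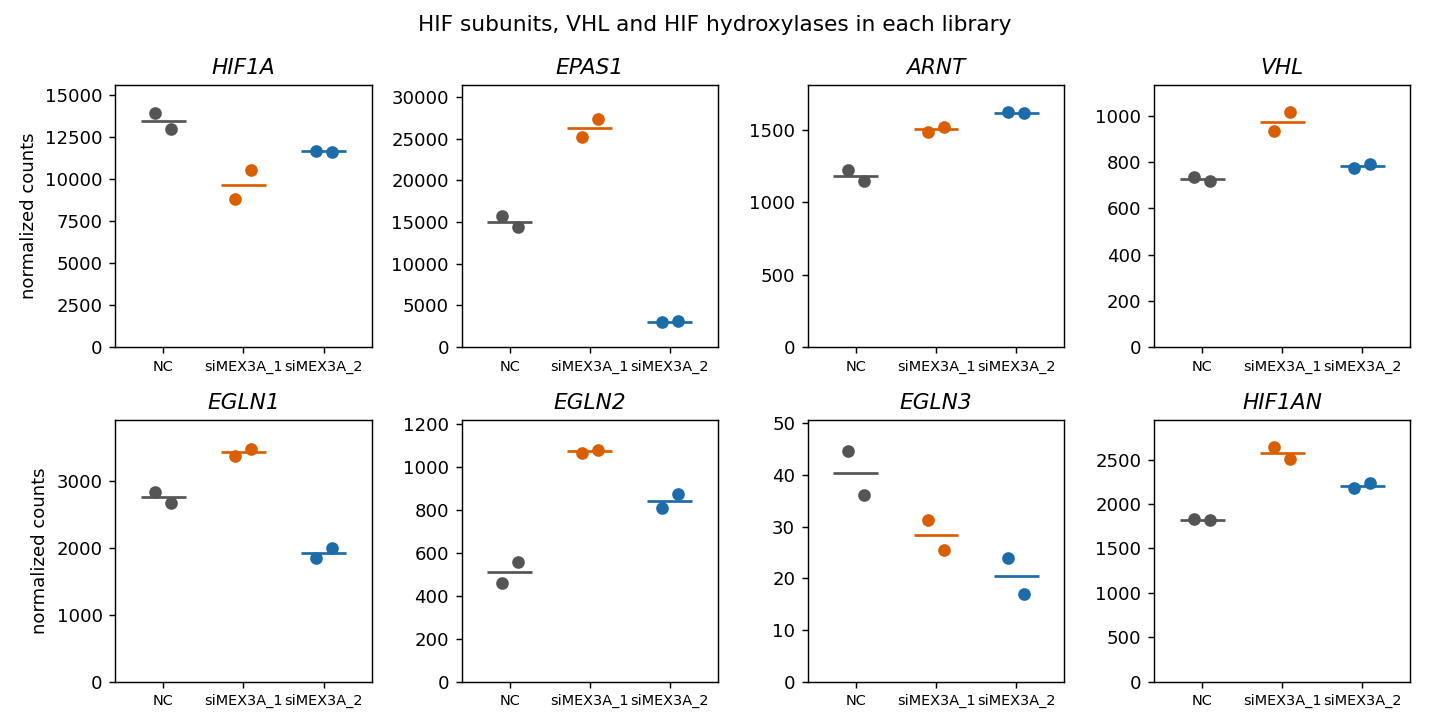
Normalized counts (vertical axes, from 0) of the 8 genes in the 6 libraries, with 1 point per library and a line at the mean of each group. EPAS1 rises to a mean of 26260 with siMEX3A_1 and falls to 3046 with siMEX3A_2 from 15040 in NC, and EGLN1 takes the same 2 directions over a smaller range.

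The 2 alpha subunits responded differently, and EPAS1 with siMEX3A_2 showed the largest change among the 8 genes. EPAS1 had 15750 and 14330 normalized counts in the NC libraries, 25170 and 27360 in the siMEX3A_1 libraries, and 3031 and 3060 in the siMEX3A_2 libraries. The 3 groups did not overlap: both siMEX3A_1 libraries were above and both siMEX3A_2 libraries far below both NC libraries. EPAS1 rose 1.75-fold with siMEX3A_1 (log2 fold change 0.80, SE 0.06, 95% interval 0.68 to 0.93, edgeR adjusted p = 2e-06). With siMEX3A_2 it fell by 79.7% (log2 fold change -2.30, SE 0.06, 95% interval -2.44 to -2.17, adjusted p = 2.33e-08). Among the 4151 genes with a mean of at least 1000 normalized counts, only 8 had a lower fold change with siMEX3A_2 than EPAS1, which ranked 9 from the bottom. Tested directly, EPAS1 was 8.62-fold higher with siMEX3A_1 than with siMEX3A_2 (log2 difference 3.11, SE 0.06, adjusted p = 7.68e-09).

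HIF1A, the alpha subunit present in most cell types, was lower with both siRNAs and over a narrow range. It had 13900 and 12930 normalized counts in NC, 8814 and 10490 with siMEX3A_1, and 11670 and 11590 with siMEX3A_2. Each siRNA library was below both NC libraries, and the siMEX3A_1 pair was the widest spread, on either side of 9654 ± 1190 (SD, n = 2). HIF1A fell by 28% with siMEX3A_1 (log2 fold change -0.47, SE 0.07, adjusted p = 0.000447). With siMEX3A_2 it fell by 13.3% (log2 fold change -0.21, SE 0.07, adjusted p = 0.0423), and this call ended without NC replicate 1 (adjusted p = 0.249), NC replicate 2 (0.0599), siMEX3A_2 replicate 1 (0.163) or siMEX3A_2 replicate 2 (0.201), and with no filter on low counts (0.103). The direct difference between the siRNAs was -0.27 (SE 0.07, adjusted p = 0.0127) and lost its call without siMEX3A_1 replicate 1 (0.0657), siMEX3A_2 replicate 1 (0.0805) or siMEX3A_2 replicate 2 (0.0699). The antisense transcripts HIF1A-AS1 and HIF1A-AS2 and the pseudogene HIF1AP1 had at most 7 counts in any library; without a stated strand setting, reads of HIF1A and its antisense transcripts cannot be told apart.

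The balance of the alpha subunit transcripts differed between groups by more than its spread within them. There were 1.13 and 1.11 EPAS1 counts for each HIF1A count in NC, 2.86 and 2.61 with siMEX3A_1, and 0.260 and 0.264 with siMEX3A_2. This ratio compares 2 genes of unequal length, so only its change between libraries has meaning here, and it needs no scaling between libraries. On the log2 scale it was 0.16 ± 0.02 in NC, 1.45 ± 0.09 with siMEX3A_1 and -1.93 ± 0.02 with siMEX3A_2 (SD, n = 2 each). The differences from NC were 1.28 and -2.10, and the siRNAs differed by 3.38, a ratio of 10.4. With 2 against 2 libraries an exact two-sided permutation test cannot give less than the p = 0.33 obtained in each comparison.

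**Figure D2:**
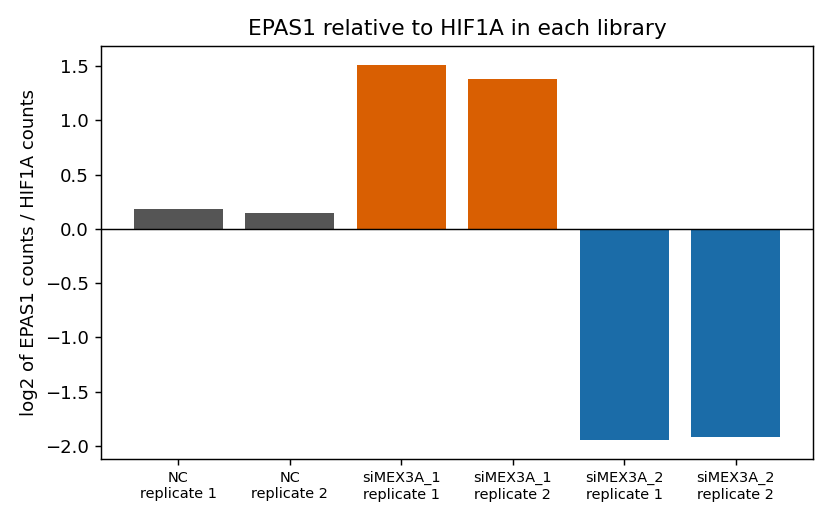
Log2 of EPAS1 counts over HIF1A counts (vertical axis) in each of the 6 libraries, 1 bar per library drawn from 0. The NC bars are at 0.18 and 0.15, the siMEX3A_1 bars at 1.51 and 1.38 and the siMEX3A_2 bars at -1.95 and -1.92.

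ARNT, the partner that both alpha subunits need to bind DNA, was higher with both siRNAs. Normalized counts of ARNT were 1220 and 1146 (NC), 1485 and 1519 (siMEX3A_1), and 1621 and 1615 (siMEX3A_2). Every siRNA library was above both NC libraries. ARNT rose by 0.34 (SE 0.06, adjusted p = 0.00113) with siMEX3A_1 and by 0.45 (SE 0.06, adjusted p = 0.000227) with siMEX3A_2 on the log2 scale. The difference between the siRNAs did not pass (-0.11, 95% interval -0.25 to 0.03, adjusted p = 0.179).

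VHL, the substrate receptor of the ligase, was higher with siMEX3A_1. It had 735.7 and 716.8 normalized counts in NC, 934.3 and 1016 with siMEX3A_1, and 773.2 and 791.1 with siMEX3A_2. The siMEX3A_1 libraries were above all others, and the siMEX3A_2 libraries lay just above NC. VHL rose by 34.3% with siMEX3A_1 (log2 fold change 0.43, SE 0.07, adjusted p = 0.000402). The value with siMEX3A_2 was 0.11 (95% interval -0.04 to 0.26, adjusted p = 0.213), which did not pass. The direct difference of 0.32 (SE 0.07, adjusted p = 0.00247) did.

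Among the hydroxylases, EGLN1 took the same directions as EPAS1. It had 2842 and 2667 normalized counts in NC, 3375 and 3480 with siMEX3A_1, and 1852 and 1994 with siMEX3A_2. The 3 groups did not overlap. EGLN1 rose by 0.32 (SE 0.06, adjusted p = 0.00185) with siMEX3A_1 and fell by 0.52 (SE 0.06, adjusted p = 1e-04) with siMEX3A_2 on the log2 scale. The direct difference was 0.83 (SE 0.06, adjusted p = 3.52e-06), or 1.78-fold. EGLN1 is itself a known HIF target, and its pseudogene EGLN1P1 had at most 1 count.

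EGLN2, a prolyl hydroxylase that does not depend on hypoxia for its expression, showed the largest rise of the set with siMEX3A_1. Its normalized counts were 460.7 and 559.8 in NC, 1067 and 1079 with siMEX3A_1, and 807.2 and 873.2 with siMEX3A_2. Both siRNAs placed it above both NC libraries. EGLN2 rose 2.10-fold (log2 fold change 1.07, SE 0.09, adjusted p = 6.43e-06) and 1.65-fold (0.72, SE 0.09, adjusted p = 0.000131). The siRNAs differed by 0.35 (SE 0.09, adjusted p = 0.00643), and this call ended without siMEX3A_2 replicate 1 (adjusted p = 0.0747). EGLN2 shares exons with the readthrough transcript RAB4B-EGLN2, which had 0 to 6 counts per library. The upstream neighbour RAB4B had a log2 fold change of 0.71 (adjusted p = 0.000287) with siMEX3A_1 and of 0.15 (adjusted p = 0.273) with siMEX3A_2.

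EGLN3 was scarce, and depth limits what can be said of it. It had 45 and 37 counts in NC, 31 and 25 with siMEX3A_1, and 24 and 17 with siMEX3A_2. The siRNA libraries were all below the NC libraries. The log2 fold change with siMEX3A_1 was -0.50 (95% interval -1.17 to 0.16, adjusted p = 0.184), not past the test. EGLN3 fell by 0.97 with siMEX3A_2 (SE 0.31, adjusted p = 0.0245), but this call ended with DESeq2 (adjusted p = 0.166), without NC replicate 1 (0.141) and without siMEX3A_2 replicate 2 (0.148). In the authors' deposited table the fall of EGLN3 with siMEX3A_2 did not pass either (adjusted p = 0.214).

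HIF1AN, the asparaginyl hydroxylase that limits HIF transactivation, was higher with both siRNAs. It had 1832 and 1819 normalized counts in NC, 2641 and 2505 with siMEX3A_1, and 2178 and 2237 with siMEX3A_2. The groups were ordered without overlap, NC lowest and siMEX3A_1 highest. HIF1AN rose by 0.50 (SE 0.06, adjusted p = 6.43e-05) and by 0.27 (SE 0.06, adjusted p = 0.00319) on the log2 scale. The siRNAs differed by 0.22 (SE 0.06, adjusted p = 0.00937), a call that ended without siMEX3A_2 replicate 1 (adjusted p = 0.0786).

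Counted together, 7 of the 8 genes were called with siMEX3A_1, where 52.9% of all genes tested were called at an edgeR adjusted p under 0.05. The 6 that rose were EPAS1, ARNT, VHL, EGLN1, EGLN2 and HIF1AN (27.0% of all genes rose), and HIF1A fell (25.9% of all genes fell). With siMEX3A_2, 7 of 8 were called against 50.9% of all genes. ARNT, EGLN2 and HIF1AN rose (25.2% of all genes), and HIF1A, EPAS1, EGLN1 and EGLN3 fell (25.7% of all genes). The count with siMEX3A_2 was 6 with DESeq2, with no filter, with a minimum mean of 50 counts and with the replicate number as a block. Leaving out any 1 NC or siMEX3A_2 library also ended the HIF1A call, and in some cases the EGLN3 call as well, as given above. In the direct comparison 6 of 8 differed against 51.6% of all genes: EPAS1, VHL, EGLN1, EGLN2 and HIF1AN were higher with siMEX3A_1 (26.0% of all genes) and HIF1A was lower (25.5% of all genes). The direct count was 3 without siMEX3A_2 replicate 1. With so large a share of all genes called in each comparison and the members chosen by name, these counts are a description of the set. Both comparisons with NC share the same 2 NC libraries.

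**Figure D3:**
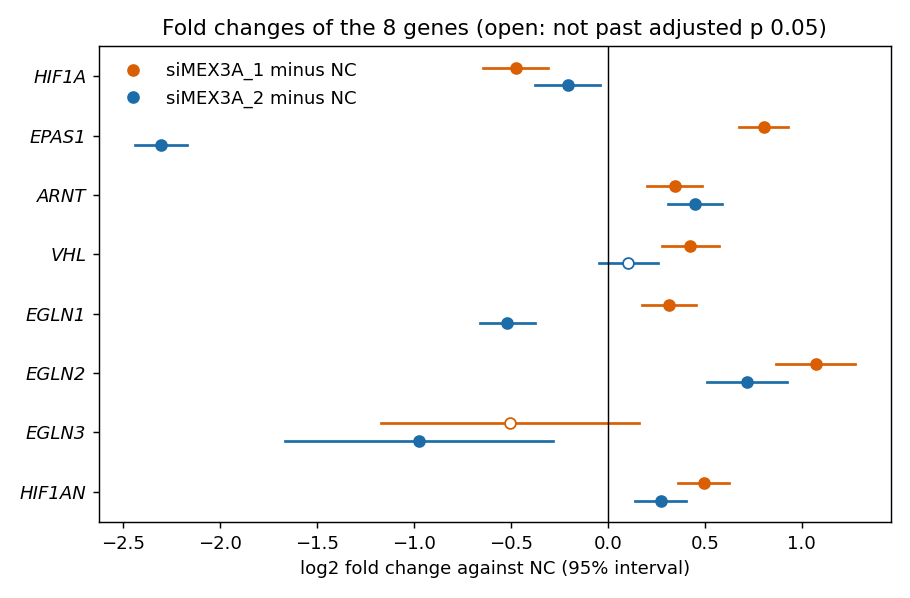
Log2 fold changes against NC (horizontal axis) of the 8 genes with 95% intervals, siMEX3A_1 above siMEX3A_2 for each gene, filled where the adjusted p is under 0.05. EPAS1 (0.80 and -2.30) and EGLN1 (0.32 and -0.52) lie on opposite sides of 0, and VHL with siMEX3A_2 and EGLN3 with siMEX3A_1 are open.

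For each member, the 2 genes whose centred log2 normalized counts over the 6 libraries lay closest to it were taken from 11055 genes. EPAS1 lay farther from its 2 closest profiles than the other members did from theirs. They were PTGS1, the constitutive cyclooxygenase, and LFNG, a glycosyltransferase that modifies Notch, with root mean square differences of 0.16 and 0.18 on the log2 scale. PTGS1 had log2 fold changes of 0.82 and -1.99, and LFNG of 0.79 and -1.97. For HIF1A the closest was the nuclear export receptor XPO1 (0.03). For EGLN1 they were MTCH2 (0.03) and FUT8 (0.04), for ARNT ZDHHC5 (0.02) and CLCN6 (0.03), and for VHL the laminin chain LAMC1 (0.02) and BZW1 (0.02). For EGLN2 they were MROH1 (0.05) and TMEM141 (0.05), for EGLN3 MAP3K6 (0.08) and QRFPR (0.12), and for HIF1AN ERP44 (0.02) and UBE2V1 (0.02). With 6 libraries in 3 groups many genes share such a shape, and the distance carries no test. Profiles were not scaled, so the distance also depends on the size of the fold changes, which was largest for EPAS1 with siMEX3A_2.

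Partners and modifiers of the VHL ligase were mostly lower with siMEX3A_1. Of 8 genes listed, 6 fell and 2 rose (median log2 fold change -0.45, against -0.01 over all genes, of which 25.9% fell and 27.0% rose). Fewer than 6 were called lower in some of the alternative runs. CUL2, the scaffold of the ligase, fell by 0.81 (SE 0.07) and UBE2M, which loads NEDD8 onto cullins, by 1.11 (SE 0.08). The deubiquitinase gene USP33 fell by 0.46, while the adaptor ELOB rose by 0.47 (SE 0.07). RBX1 and USP20 fell by 0.44 and 0.49, and NEDD8 rose by 0.41. With siMEX3A_2, RBX1 and USP20 also fell, by 0.44 and 0.34, and NEDD8 also rose, by 0.28. The other 5 genes, USP33 among them (0.14, adjusted p = 0.0928), did not pass. The median of the 8 genes with siMEX3A_2 was -0.018, against -0.002 over all genes. RBX1 kept its call in every alternative run. USP20 lost its call with DESeq2 (adjusted p = 0.254), with no filter (0.063), and without either NC replicate (0.0898 and 0.11) or either siMEX3A_2 replicate (0.0535 and 0.207). NEDD8 lost its call without NC replicate 1 (0.0635) or siMEX3A_2 replicate 2 (0.0717).

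Coactivators and other regulators of HIF moved in both directions. Of 19, 9 rose and 5 fell with siMEX3A_1 (median 0.14), where 27.0% of all genes rose and 25.9% fell. With siMEX3A_2, 9 rose and 6 fell (median 0.14), against 25.2% and 25.7% of all genes. HSP90AA1, a chaperone that protects HIF alpha, fell by 1.05 (SE 0.05) and 0.76 (SE 0.05). SIAH2, a ubiquitin ligase that targets EGLN proteins, rose by 1.26 (SE 0.09) with siMEX3A_1, where MDM2 also rose by 0.87 and the SUMO protease gene SENP1 fell by 0.94. With siMEX3A_2, SIAH2 and MDM2 also rose, by 0.52 and 0.53, and SENP1 also fell, by 0.385. FBXW7 rose with both siRNAs, by 0.85 and 1.29. HSP90AB1 rose by 0.135 (edgeR adjusted p = 0.0149) with siMEX3A_1 and fell by 0.55 with siMEX3A_2. CITED2, a HIF target whose product competes for the coactivators CREBBP and EP300, averaged 4765 normalized counts in the NC libraries, 7967 in the siMEX3A_1 libraries and 2309 in the siMEX3A_2 libraries. Its fold changes of 0.74 and -1.05 and its direct difference of 1.79 (adjusted p = 2.35e-08) all passed.

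Most of the other prolyl and lysyl hydroxylase genes fell with siMEX3A_2; their products use the same cofactors as the EGLN enzymes, and apart from P4HTM they act on collagen. Of 10 tested, 7 fell and 0 rose by edgeR (median -0.73), where 25.7% of all genes fell, and P4HA2, P3H2 and P4HTM did not pass (adjusted p = 0.301, 0.286 and 0.0535); at an unadjusted p under 0.05 the counts were 8 and 0, and DESeq2 also called 0 higher. With siMEX3A_1, 5 rose and 2 fell (median 0.11), and 1 fell with DESeq2 and without NC replicate 1, NC replicate 2 or siMEX3A_1 replicate 2. Over all genes, 27.0% rose and 25.9% fell with siMEX3A_1. P3H3 fell by 2.03 (SE 0.08), PLOD1 by 1.19 and PLOD3 by 0.95 with siMEX3A_2. With siMEX3A_1, P4HA1 rose by 0.51 and P3H1 by 0.35, while P3H3 fell by 0.46. PLOD2, a lysyl hydroxylase and HIF target, had a mean of 2699 in NC, 5900 with siMEX3A_1 and 1524 with siMEX3A_2, and its direct difference was 1.95 (adjusted p = 3.57e-08). In the direct comparison 8 of the 10 were higher with siMEX3A_1, where 26.0% of all genes were higher.

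HIF target genes, 42 listed and 39 tested, were mostly higher with siMEX3A_1. There, 30 rose and 5 fell (median 0.64, against -0.01 over all genes, of which 27.0% rose and 25.9% fell). With siMEX3A_2, 15 rose and 20 fell (median -0.18, against -0.002 over all genes, of which 25.2% rose and 25.7% fell). In the direct comparison 30 were higher and 4 lower with siMEX3A_1 (median difference 0.99, against -0.001 over all genes). Of all genes, 26.0% were higher and 25.5% lower in that comparison. The list shares P4HA1, P4HA2 and PLOD2 with the hydroxylases and CITED2 with the regulators. VEGFA, the angiogenic growth factor gene, averaged 1243 normalized counts in the NC libraries, 6011 in the siMEX3A_1 libraries and 2128 in the siMEX3A_2 libraries, so it rose with both (2.27 and 0.78). The stress gene NDRG1 rose by 2.75 with siMEX3A_1 and fell by 0.34 with siMEX3A_2, and the lipase inhibitor gene ANGPTL4 rose by 3.03 and 0.51.

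CCND1, the cyclin D1 gene and a target often assigned to EPAS1 in renal carcinoma, moved opposite to EPAS1 in both comparisons. It fell by 1.53 (SE 0.05) with siMEX3A_1 and rose by 0.22 with siMEX3A_2. LOXL2, a lysyl oxidase gene, was at 0.01 (adjusted p = 0.907) with siMEX3A_1 and fell by 1.91 with siMEX3A_2. The glucose transporter gene SLC2A3 rose by 1.99 and lactate dehydrogenase A (LDHA) fell by 1.05 with siMEX3A_2. The targets not tested for low counts were CA9, CXCR4 and EPO. CA9, a membrane carbonic anhydrase, had 3 and 6 counts in NC, 4 and 5 with siMEX3A_1, and 0 in both siMEX3A_2 libraries, and EPO, the erythropoietin gene, was at 0 in all 6.

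**Figure D4:**
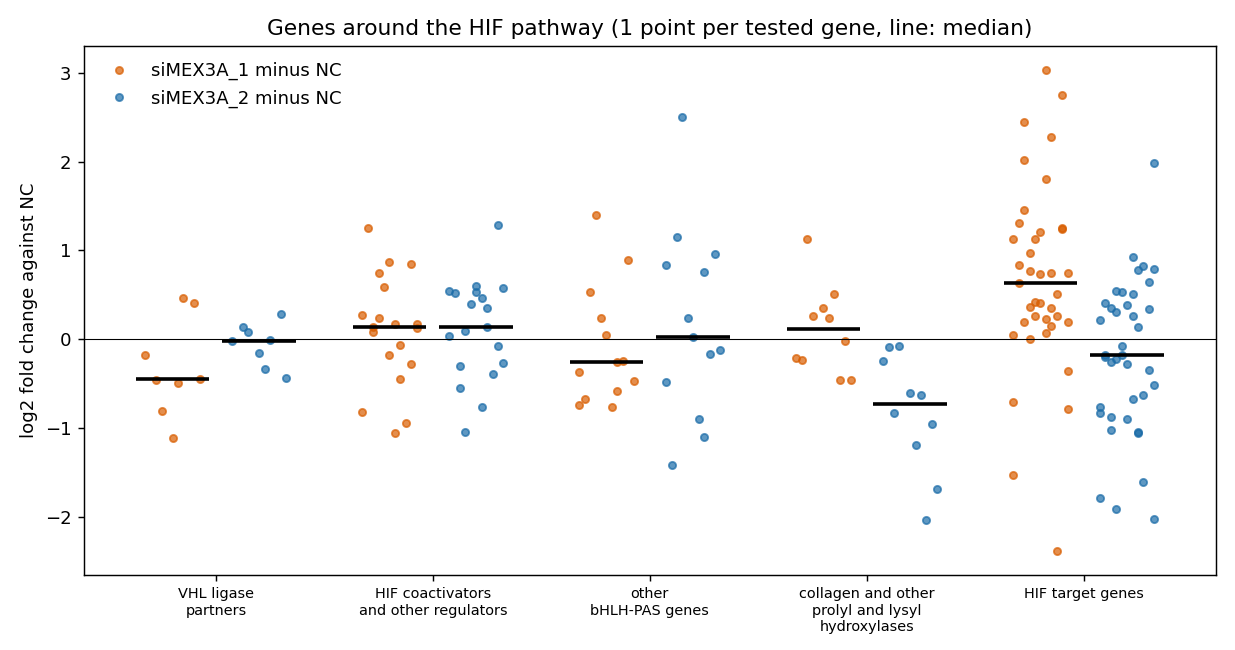
Log2 fold change against NC (vertical axis) of each tested gene in 5 lists around the HIF pathway, siMEX3A_1 at left and siMEX3A_2 at right in each list, with a black line at the median. HIF target genes have a median of 0.64 with siMEX3A_1 and -0.18 with siMEX3A_2, and the collagen and related hydroxylases of 0.11 and -0.73.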

How the data were processed

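BGI built 6 mRNA libraries from ACHN RNA and sequenced single ends, per the labels' protocols. The submitters' processing notes list STAR and RSEM without versions, and GRCh37 and hg19 as builds; a strand setting is not stated. The 2 deposited tables hold the authors' expected counts per library. They also hold the authors' own comparison under DESeq2's column names, per the file headers: a log2 fold change with its error, a mean and a test statistic (scores made by the authors) and the authors' p-value per gene.

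Expected counts were rounded and fitted with edgeR 4.0.16 (R 4.3.3): quasi-likelihood test, TMM scaling, default filter, 1 estimate of spread over all 6 libraries, Benjamini-Hochberg adjustment over 18583 genes and a threshold of 0.05. Standard errors are the fold change over the square root of F. Normalized counts are counts over the TMM-scaled library size relative to its mean. Alternatives used DESeq2 1.42.0, other scalings and filters, the replicate number as a block and leaving out each library. The fit was tested on simulated data. Pairs of libraries of a group differed by more than sampling noise (chi-square per degree of freedom from 2.39 to 5.62). Rows sharing a name (4481) and 27 date names were not named.

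The members and gene lists were chosen with earlier results of these data known. Named beside the members were up to 4 genes per list by lowest p in each comparison with NC, the 2 nearest profiles per member (mean normalized count 100 or more) and MEX3A. CA9, CXCR4, EPO and HIF3A fall outside this rule and were named after their values were seen, and 2 genes that the rule names are not reported here. Lengths came from GENCODE 29 (GRCh38) by symbol.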

Additional observations from a re-analysis of the deposited data

Results flagged for a closer look

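The effects of the 2 siRNAs differed by the direct edgeR test in 6 of the 8 genes, where 51.6% of all genes tested differed. Without siMEX3A_2 replicate 1 the count was 3, with HIF1A, EGLN2 and HIF1AN no longer called, and HIF1A also lost its call without siMEX3A_1 replicate 1 or siMEX3A_2 replicate 2. The log2 difference, siMEX3A_1 minus siMEX3A_2, was 3.108 for EPAS1 (adjusted p = 7.68e-09), with both libraries of siMEX3A_1 above and both of siMEX3A_2 below NC. It was 0.834 for EGLN1 (adjusted p = 3.52e-06), with the same placing. For VHL it was 0.318 (adjusted p = 0.00247), for EGLN2 0.353 (adjusted p = 0.00643) and for HIF1AN 0.221 (adjusted p = 0.00937), each higher in both siMEX3A_1 libraries than in both siMEX3A_2 libraries. For HIF1A it was -0.269 (adjusted p = 0.0127), lower in both siMEX3A_1 libraries. Groups of 2 libraries were too small to look for a library far from its group.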

How the results depend on the processing

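Of 333 fold changes of the 8 genes under 14 alternatives, 319 kept the direction and side of the threshold of the reported value, 14 lost a call and 0 reversed. The losses concern HIF1A and EGLN3 with siMEX3A_2, and HIF1A, EGLN2 and HIF1AN in the direct comparison. EPAS1 ran from 0.74 to 0.883 with siMEX3A_1 and from -2.372 to -2.23 with siMEX3A_2. The number of the 8 genes that differed directly ran from 3 to 6 when 1 library was left out, lowest without siMEX3A_2 replicate 1. EGLN3 has no value with a minimum mean of 50 counts. No scaling moved the median of all genes by over 0.1. LOXL2 with siMEX3A_1, which did not pass in any of these settings, changed sign with library size scaling (-0.054), with the minimum mean of 50 (-0.019) and without NC replicate 2 (-0.025), and ran up to 0.053 when 1 library was left out. Replicate numbers are shared between groups in the labels, but nothing says that they mark a shared culture or day, and deviations of same-numbered libraries correlated at -0.353 (NC with siMEX3A_1), 0.21 (NC with siMEX3A_2) and -0.069 (between siRNAs) across 11584 genes. With the replicate block, 7, 6 and 6 of the 8 genes were called in the 3 comparisons, and HIF1A and USP20 with siMEX3A_2 had adjusted p of 0.0614 and 0.0508. The counts of list genes and the length model were added after seeing the data: HIF targets higher with siMEX3A_1 numbered 26 to 30. EGLN3, at 17 to 45 counts, is the member whose precision depth limits most.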

Other observations

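Relatives of the HIF subunits in the bHLH-PAS family, whose members dimerize through the same kind of domain as ARNT, and the NCOA coactivators changed in both directions. Of 13 tested, 3 rose and 5 fell with siMEX3A_1, where 52.9% of all genes were called, and 5 rose and 3 fell with siMEX3A_2, where 50.9% were called (medians -0.26 and 0.02, against -0.012 and -0.002 over all genes). ARNTL, the circadian activator also called BMAL1, had means of 89.0, 235 and 505 normalized counts in NC, siMEX3A_1 and siMEX3A_2, and rose by 1.40 (SE 0.11) and 2.50 (SE 0.11) on the log2 scale. Its dimer partner CLOCK fell by 0.76 and 0.90, and the related partner NPAS2 by 0.67 and 1.41. The dioxin receptor gene AHR, another partner of ARNT, rose by 0.53 and 1.16. ARNTL2 fell by 0.47 with siMEX3A_1 and did not pass with siMEX3A_2 (-0.12, adjusted p = 0.204). The coactivator gene NCOA3 fell by 0.58 with siMEX3A_1 and rose by 0.76 with siMEX3A_2. HIF3A, which encodes a further alpha subunit, had means of 21.6, 16.8 and 15.5 normalized counts, and neither fold change passed (-0.37 and -0.48).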
